A study of Mus musculus with 6 samples.

Results

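The collagen gene family was followed in mouse wound scars that differed in how many hair follicles they regenerated. Members were the genes whose symbol has the form Col, number, a, number. Each had a row named by 1 symbol only, and the row of highest mean stood for the gene. There were 42 such genes among 20255 named genes, and they were divided by textbook structure into 11 fibrillar, 7 FACIT (fibril-associated collagens with interrupted helices), 9 basement membrane and 15 other collagens. Col19a1 shared its row with another gene and Col22a1 had no named row in the table used, so neither was analysed here.

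Affymetrix exon arrays were hybridised with RNA from whole skin biopsies of scars. There were 3 scars from mice with high regeneration and 3 from mice with low regeneration, with 1 scar of each kind at days 4, 6 and 9 after wound closure. The labels call the second group low, and the study's design text says that it had no regenerated follicles. The labels name no strain, sex, age, wound size, agent or allele for either group. The labels do not say whether any scars share an animal, so p-values measure only the spread between these samples. The medians of the 6 arrays differed by at most 0.055 log2 units, and values were compared as deposited. Their number limits the precision of every value. One low-regeneration scar stood apart, that of day 9, with 12.77 log2 units of Xist, and with the Y-linked genes Eif2s3y, Kdm5d and Uty at 4.36, 4.98 and 3.88 against at least 7.10, 7.29 and 7.46 elsewhere. Xist was at 7.30 in the low-regeneration scar of day 6 and at 5.75 to 5.82 in the other 4, and the Y-linked genes of that scar lay within or above the range of those 4. For the pair of day 9, group and sex therefore cannot be told apart.

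Collagen chains carry glycine at regular intervals, which lets them wind around each other into a helix. Fibrillar collagens, led by types I, III and V in skin, assemble into the fibrils that give dermis and scar their strength, and FACIT collagens coat those fibrils. Type IV collagen forms the sheet-like network of basement membranes, type VII anchors the epidermal basement membrane to the dermis, and type XVII spans the membrane of basal keratinocytes. Chains are hydroxylated and folded in the endoplasmic reticulum, trimmed outside the cell and cross-linked, and cells bind the finished collagen through integrins and discoidin domain receptors.

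The first comparison set the high-regeneration scar of each day against the low-regeneration scar of that day. Col1a1, Col1a2, Col3a1, Col5a1, Col5a2, Col6a1 and Col6a2, chains of the main dermal types, had mean differences within 0.2 log2 units of 0. Col11a1 and Col24a1, both fibrillar, had lower values in the high-regeneration scar of all 3 pairs, with mean differences of -0.68 and -0.64 log2 units, and so did Col7a1 and Col8a2. Col6a6 and Col15a1 had higher values in all 3 pairs, by 0.40 and 0.19. No collagen gene passed the test: limma with day as a block gave 0 of 42 at an adjusted p under 0.05, where 8 of 15191 tested genes passed (0.0527%). Over all genes that number was 35 without the day 6 pair and 0 without the day 4 or the day 9 pair, and for collagen genes it was 0 in each case.

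An unadjusted p under 0.05 was found in 6 collagen genes (14.3%), 2 with higher and 4 with lower values in the high-regeneration scars. Over all genes tested, 10.1% met that threshold, 4.89% higher and 5.17% lower. In 5 collagen genes (11.9%) the groups did not overlap, against 11.3% of all genes: all high-regeneration scars lay above all low-regeneration scars in 2 (5.08% of all genes) and below them in 3 (6.18% of all genes). In 11 collagen genes the difference had 1 sign in all 3 pairs (26.2%, against 34.0% of all genes), 4 higher (15.8% of all genes) and 7 lower (18.3% of all genes). Most of these shares lay near or below those of all genes; that of lower values at an unadjusted p under 0.05 was 9.52%, which rests on 4 genes. The median difference was -0.017 log2 units over the 42 genes and -0.0028 over all genes tested, and 35 of the 42 (83.3%) differed by less than 0.2 log2 units, against 85.9% of all genes. With each pair left out in turn the family's median lay between -0.036 and 0.017.

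**Figure D1:**
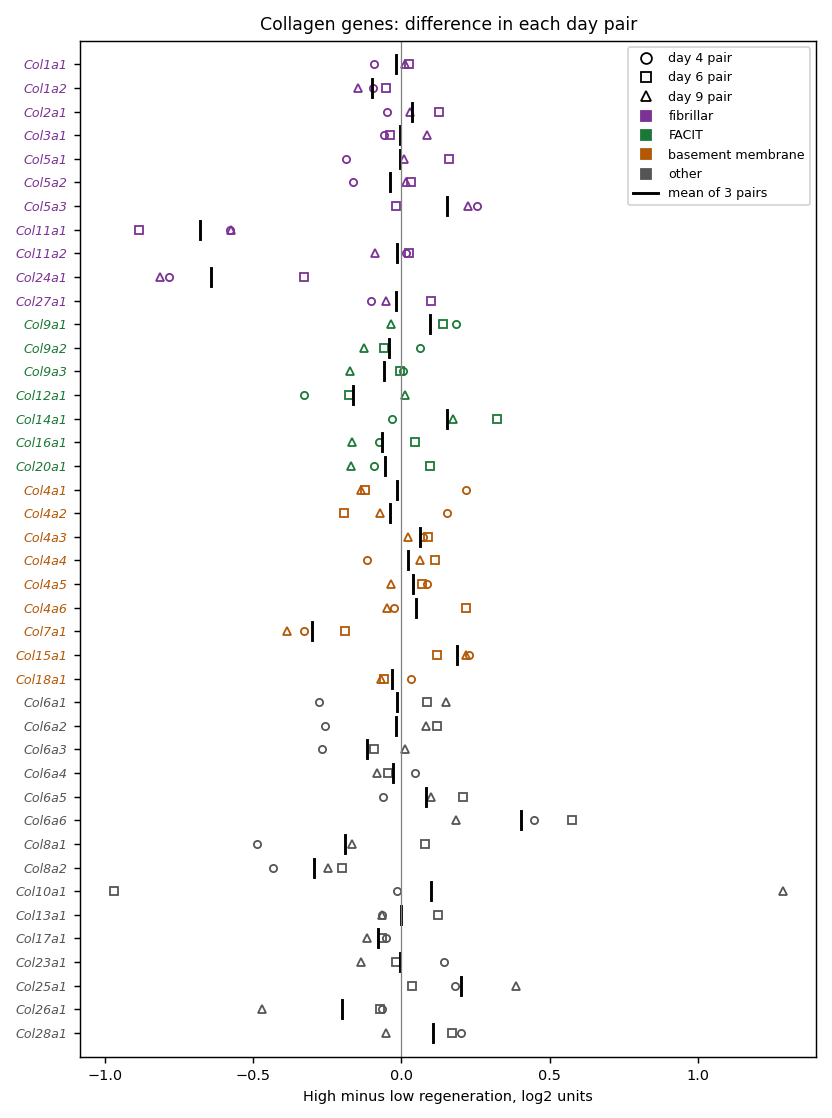
Difference between the high- and low-regeneration scar of each day for the 42 collagen genes (x axis, log2 units, positive where the high-regeneration scar was higher), with 1 symbol per day pair and a bar at the mean of 3 pairs. Gene names are coloured by class. Col11a1 and Col24a1 lie furthest to the left, at means of -0.68 and -0.64, and the chains of types I and III lie within 0.2 of 0 in every pair.

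Promoter sequences are shown for the 2 genes with the largest mean differences. RefSeq windows on mouse build GRCm38.p6, from 250 bases before to 50 after the annotated start of the transcript, were available for 34 of the 42 collagen genes (37 windows). Col11a1 (chr3:114030290-114030589, + strand) and Col24a1 (chr3:145292222-145292521, + strand) are both on chromosome 3. Capitals mark matches, on either strand, to the letters searched: the AP-1 motif TGANTCA, the CCAAT box CCAAT, the GC box GGGCGG, the TATA box TATAAA and the cyclic AMP response element TGACGTCA. The last of these was added after the Col24a1 window had been read.
Col11a1: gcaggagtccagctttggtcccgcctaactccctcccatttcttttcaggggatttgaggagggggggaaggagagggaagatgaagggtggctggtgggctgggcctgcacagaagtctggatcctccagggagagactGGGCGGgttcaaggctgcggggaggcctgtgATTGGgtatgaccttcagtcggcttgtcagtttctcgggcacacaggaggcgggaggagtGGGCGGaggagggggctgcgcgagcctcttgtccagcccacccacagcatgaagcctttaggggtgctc
Col24a1: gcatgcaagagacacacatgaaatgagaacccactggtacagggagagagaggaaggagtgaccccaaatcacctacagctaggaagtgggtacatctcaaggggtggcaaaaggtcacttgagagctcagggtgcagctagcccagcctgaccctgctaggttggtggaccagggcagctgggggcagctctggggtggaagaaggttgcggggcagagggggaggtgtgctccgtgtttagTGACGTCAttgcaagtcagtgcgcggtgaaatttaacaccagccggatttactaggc
The Col11a1 window held 2 GC boxes and 1 CCAAT box. At least 1 GC box was in 62.2% of the collagen windows and 35.7% of all 32851 windows, and at least 1 CCAAT box in 35.1% of the collagen windows and 37.4% of all. The median share of G and C bases was 60.0% in the collagen windows and 52.7% in all windows, and the counts were not adjusted for it. The Col24a1 window held none of those and 1 cyclic AMP response element, found in 1.79% of all windows. The AP-1 letters were in neither, and 7.81% of all windows hold them. A match is a description of the letters and not of a binding site.

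Among the fibrillar collagens, Col11a1 encodes a chain that starts fibril assembly and is best known from cartilage. Its log2 levels at days 4, 6 and 9, an order kept for all values that follow, were 7.46, 7.16 and 7.63 in the high-regeneration scars, against 8.04, 8.05 and 8.21 in the low-regeneration scars. All 3 high-regeneration scars were below all 3 low-regeneration scars, and the widest gap was at day 6. The mean difference was -0.68 ± 0.18 (SD of 3 pairs, 0.62-fold, lower in 3 of 3 pairs), with adjusted p = 0.173 in limma, and the 95% interval ran from -0.91 to -0.45.

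Col24a1 encodes a fibrillar chain known from developing bone and cornea. Its levels were 7.26, 7.55 and 7.68 in the high-regeneration scars, against 8.04, 7.87 and 8.50 in the low-regeneration scars. The groups did not overlap here either, with the smallest gap at day 6 and the highest value in the low-regeneration scar of day 9. The difference averaged -0.64 ± 0.27 (SD of 3 pairs, 0.64-fold, lower in 3 of 3 pairs, adjusted p = 0.261 in limma), with an interval of -0.95 to -0.34. Without the day 9 pair, Col11a1 stood at -0.73 and Col24a1 at -0.55. Of 7 listed cartilage and bone markers, 6 had a row, of which Hapln1 and Ibsp were under the level at which genes were left out as dim. The summed level of the list was 9.11 to 9.56 log2 units in the high-regeneration scars and 9.22 to 9.56 in the low-regeneration scars. The sum did not separate the groups, and Sox9, the brightest gene of the list in every scar, weighs most in it. The median difference of its 6 genes was -0.016. In all 3 pairs 1 gene was higher (against 15.8% of all genes) and 1 lower (against 18.3%). These were Ibsp and Matn3, both named after their values were seen. Ibsp, which was dim, differed by 0.20 and Matn3 by -0.51. The groups overlapped in neither, as was so for 11.3% of all genes. The part of such cells in the collagen differences was not tested. In RNA of whole biopsies, fewer cells of a type and less RNA per cell cannot be told apart.

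**Figure D2:**
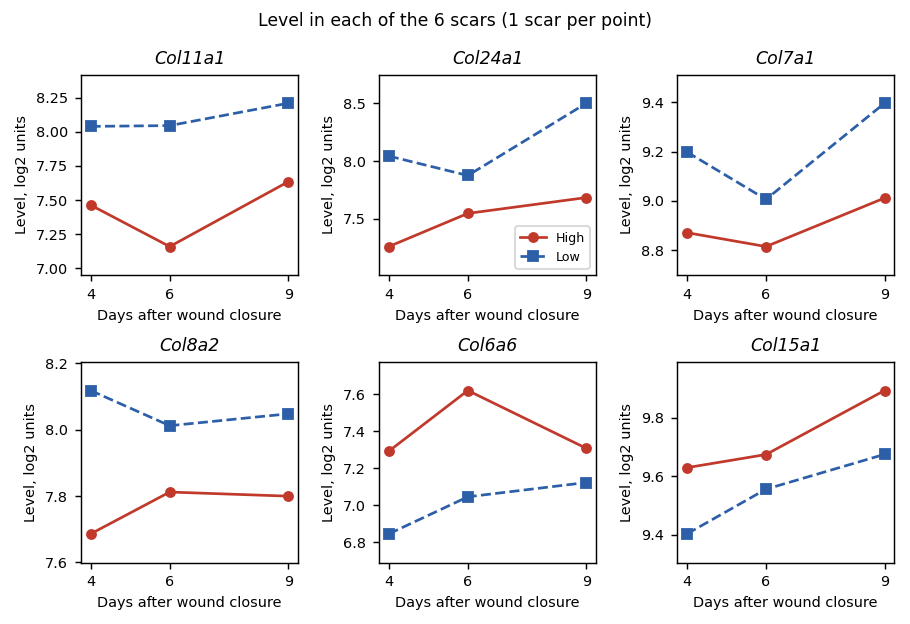
Log2 level (y axis) by day after wound closure (x axis) in each of the 6 scars, for the 6 collagen genes with an unadjusted p under 0.05; each point is 1 scar, red circles high and blue squares low regeneration. High-regeneration scars are lower on every day for Col11a1, Col24a1, Col7a1 and Col8a2 and higher on every day for Col6a6 and Col15a1; the y axes differ and do not start at 0.

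The chains of types I and III, the bulk of dermal fibrils, showed no such separation. Col1a1 had 13.18, 13.31 and 13.24 in the high-regeneration scars, against 13.27, 13.29 and 13.23 in the low-regeneration scars. Its 6 values spanned 0.13 log2 units and the groups overlapped, with a mean difference of -0.019 ± 0.065 (SD of 3 pairs) and an interval of -0.18 to 0.15. Col1a2, the partner chain in type I collagen, had 12.08, 12.19 and 12.23 in the high-regeneration scars, against 12.18, 12.24 and 12.38 in the low-regeneration scars, with lower values in all 3 pairs and a mean difference of -0.10 ± 0.048 (interval -0.26 to 0.062). Col3a1 had 11.76, 11.86 and 11.96 in the high-regeneration scars, against 11.82, 11.90 and 11.87 in the low-regeneration scars, and both groups averaged 11.86, with an interval of -0.18 to 0.17 for the difference. These intervals leave room for small differences and do not show that the groups were equal.

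Type V chains are built into type I fibrils and limit their width. Col5a1 stood at 9.84, 10.08 and 10.08 in the high-regeneration scars, against 10.03, 9.92 and 10.07 in the low-regeneration scars. In Col5a2 the values were 10.61, 10.88 and 10.90 in the high-regeneration scars, against 10.77, 10.85 and 10.89 in the low-regeneration scars. For both, the high-regeneration scar of day 4 was the lowest of the 6 and the groups overlapped, with differences of -0.0064 ± 0.17 and -0.039 ± 0.11 (SD of 3 pairs). Col5a3, the least widespread of the type V chains, read 8.61, 8.61 and 8.91 in the high-regeneration scars, against 8.35, 8.63 and 8.69 in the low-regeneration scars. Its pair differences were 0.26, -0.019 and 0.22, so the day 6 pair did not share the sign of the others (adjusted p = 0.586). Col11a2, which pairs with Col11a1 in type XI collagen, measured 7.25, 7.15 and 6.99 in the high-regeneration scars, against 7.23, 7.12 and 7.08 in the low-regeneration scars. Its groups overlapped, with a mean difference of -0.015 ± 0.063. The remaining fibrillar genes Col2a1 and Col27a1, both best known from cartilage, differed by 0.036 ± 0.087 and -0.019 ± 0.11, with mixed signs.

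No FACIT collagen had 1 sign in all 3 pairs, against 34.0% of all genes. All 7 differed by less than 0.2 log2 units, as did 85.9% of all genes. Col12a1 and Col14a1 encode the main FACIT collagens of dermis, which bridge neighbouring fibrils. Col12a1 measured 12.07, 12.13 and 12.49 in the high-regeneration scars, against 12.40, 12.30 and 12.48 in the low-regeneration scars. The 3 pair differences were -0.33, -0.18 and 0.012, a gap that was widest at day 4 and near 0 at day 9. Col14a1 had pair differences of -0.030, 0.32 and 0.17 and a mean of 0.15 ± 0.18 (SD of 3 pairs). Col9a2 and Col9a3, chains of the type IX collagen that coats cartilage fibrils, were read next. Col9a2 had 7.63, 7.48 and 7.39 in the high-regeneration scars, against 7.56, 7.54 and 7.52 in the low-regeneration scars. Col9a3 had 7.13, 6.98 and 6.89 in the high-regeneration scars, against 7.12, 6.99 and 7.06 in the low-regeneration scars. Both had overlapping groups and differences of -0.042 ± 0.10 and -0.058 ± 0.10. Col20a1, a little-studied member, had 7.20, 7.65 and 7.37 in the high-regeneration scars, against 7.29, 7.55 and 7.54 in the low-regeneration scars, again with overlap (-0.055 ± 0.14). Col9a1 and Col16a1 differed by 0.10 ± 0.12 and -0.066 ± 0.11.

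Of the basement membrane collagens, Col7a1 builds the anchoring fibrils that hold the epidermis to the dermis. Its levels were 8.87, 8.82 and 9.01 in the high-regeneration scars, against 9.20, 9.01 and 9.40 in the low-regeneration scars. The high-regeneration scar was lower on every day, although the high-regeneration scar of day 9 lay just above the low-regeneration scar of day 6, so the groups overlapped by that narrow margin. The mean difference was -0.30 ± 0.10 (SD of 3 pairs, 0.81-fold, lower in 3 of 3 pairs, adjusted p = 0.361 in limma), with an interval of -0.48 to -0.12. Col15a1 encodes a proteoglycan collagen at the outer face of vessel and muscle basement membranes. It measured 9.63, 9.67 and 9.89 in the high-regeneration scars, against 9.40, 9.56 and 9.67 in the low-regeneration scars. The high-regeneration scar was the higher on every day, by 0.19 ± 0.060 (SD of 3 pairs, 1.14-fold, higher in 3 of 3 pairs, adjusted p = 0.457 in limma), and the groups overlapped across days. Col18a1, the precursor of the vessel-regulating fragment endostatin, had 9.33, 9.28 and 9.57 in the high-regeneration scars, against 9.30, 9.34 and 9.64 in the low-regeneration scars, a difference of -0.032 ± 0.055.

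Markers of the cells that make these collagens were read beside them. All 6 basal keratinocyte markers had a row, and their summed level was 13.61 to 13.91 log2 units in the high-regeneration scars and 13.67 to 13.77 in the low-regeneration scars. All 8 endothelial markers did too, at 11.20 to 11.34 in the high-regeneration scars and 11.17 to 11.47 in the low-regeneration scars. In both sums the groups overlapped, and the high-regeneration scar was the higher at day 4 and the lower at days 6 and 9. Col7a1 was lower and Col15a1 higher in all 3 pairs. Skeletal muscle markers (6 of 8 with a row) summed to 11.01, 10.50 and 10.30 in the high-regeneration scars. In the low-regeneration scars they summed to 10.28, 10.37 and 10.19, lower in each pair. Of the 6, 3 were higher and 0 lower in all 3 pairs, against 15.8% and 18.3% of all genes. Hair shaft markers (7 of 12 with a row) summed to 10.11 to 13.24 in the high-regeneration scars and 9.07 to 10.59 in the low-regeneration scars, and 4 of the 7 were higher in all 3 pairs, against 15.8% of all genes. The part of any of these cell types in those differences was not tested.

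Type IV chains are encoded by neighbouring genes in head-to-head pairs. Col4a1, whose chain is found in nearly all basement membranes, had 9.15, 8.95 and 9.18 in the high-regeneration scars, against 8.93, 9.07 and 9.31 in the low-regeneration scars. For Col4a2, which joins it in the same network, the values were 8.95, 8.72 and 9.05 in the high-regeneration scars, against 8.79, 8.92 and 9.12 in the low-regeneration scars. Both were higher in the high-regeneration scar at day 4 and lower at days 6 and 9, with means of -0.014 ± 0.20 and -0.038 ± 0.18 (SD of 3 pairs). Col4a3 and Col4a4, chains of specialised basement membranes such as those of kidney, differed little. Col4a3 had 6.49, 6.39 and 6.28 in the high-regeneration scars, against 6.42, 6.30 and 6.26 in the low-regeneration scars. Col4a4 had 6.51, 6.63 and 6.52 in the high-regeneration scars, against 6.62, 6.52 and 6.45 in the low-regeneration scars. Col4a3 was slightly higher in all 3 pairs (0.062 ± 0.035, adjusted p = 0.761) and Col4a4 was not (0.021 ± 0.12). The X-linked Col4a5 and Col4a6, chains of the epidermal basement membrane, also had overlapping groups. Col4a5 stood at 6.30, 6.22 and 6.13 in the high-regeneration scars, against 6.21, 6.15 and 6.17 in the low-regeneration scars. Col4a6 stood at 5.99, 6.04 and 5.80 in the high-regeneration scars, against 6.02, 5.82 and 5.85 in the low-regeneration scars. They differed by 0.040 ± 0.066 and 0.049 ± 0.15. The low-regeneration scar with high Xist lay inside the range of the other scars for both.

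The 2 RefSeq windows of Col4a1 and Col4a2 on chromosome 8 are shown because the genes tracked each other across scars and their starts lie 21 bases apart on opposite strands. The windows are chr8:11312777-11313076 (- strand) for Col4a1 and chr8:11312555-11312854 (+ strand) for Col4a2, and capitals mark the 78 bases that both contain, as reverse complements.
Col4a1: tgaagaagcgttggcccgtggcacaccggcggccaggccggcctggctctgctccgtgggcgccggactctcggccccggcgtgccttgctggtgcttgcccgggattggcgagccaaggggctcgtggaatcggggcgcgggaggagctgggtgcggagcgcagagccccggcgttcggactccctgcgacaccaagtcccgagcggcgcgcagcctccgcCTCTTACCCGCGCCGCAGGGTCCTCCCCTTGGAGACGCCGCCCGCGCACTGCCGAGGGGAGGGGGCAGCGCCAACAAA
Col4a2: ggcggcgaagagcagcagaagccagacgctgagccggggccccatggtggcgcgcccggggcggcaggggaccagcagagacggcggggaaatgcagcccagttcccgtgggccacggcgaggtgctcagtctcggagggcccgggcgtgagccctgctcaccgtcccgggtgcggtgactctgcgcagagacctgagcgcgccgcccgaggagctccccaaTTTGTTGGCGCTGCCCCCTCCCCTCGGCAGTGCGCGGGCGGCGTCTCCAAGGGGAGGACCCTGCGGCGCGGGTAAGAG
The starts of the X-linked pair Col4a5 and Col4a6 lie 1343 bases apart.

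The difference between the log2 levels of Col4a1 and Col4a2 had an SD of 0.039 over the 6 scars. Col6a1 and Col6a2, chains of 1 type VI heterotrimer and neighbours on chromosome 10, gave the same SD, 0.039. It was 0.098 for Col1a1 and Col1a2, which lie on chromosomes 11 and 6, and 0.066 for Col5a1 and Col5a2 on chromosomes 2 and 1. The pairs Col4a3 with Col4a4 and Col4a5 with Col4a6 had 0.085 and 0.071. Col8a1 with Col8a2 had 0.239, and Col11a1 with Col11a2 had 0.43. Of the 10 pairs of chains compared, the first 2 named kept the most even ratio and the chains of type XI the least even, a description over 6 arrays with no test.

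**Figure D3:**
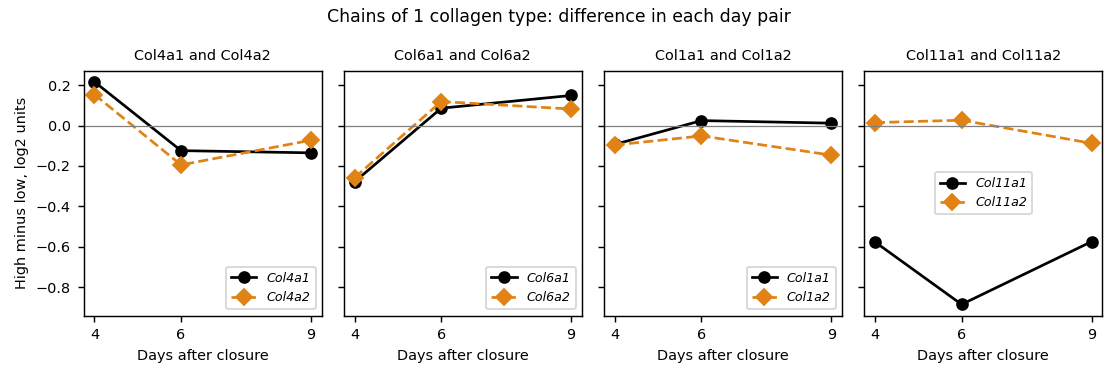
High minus low difference (y axis, log2 units) in the day pairs of days 4, 6 and 9 (x axis) for 4 pairs of chains that form 1 collagen type, with circles for the chain named first and diamonds for the chain named second. Col4a1 with Col4a2 and Col6a1 with Col6a2 follow each other pair by pair, and Col11a1 lies at -0.58, -0.89 and -0.57 while Col11a2 lies at 0.015, 0.027 and -0.088.

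Type VI collagen forms beaded microfibrils around cells. Col6a1 stood at 12.23, 12.57 and 12.58 in the high-regeneration scars, against 12.51, 12.49 and 12.43 in the low-regeneration scars. Col6a2 had 11.33, 11.74 and 11.66 in the high-regeneration scars, against 11.58, 11.62 and 11.57 in the low-regeneration scars. In the third chain of the common heterotrimer, Col6a3, the values were 10.23, 10.28 and 10.75 in the high-regeneration scars, against 10.50, 10.37 and 10.74 in the low-regeneration scars. For all of these the high-regeneration scar of day 4 was the lowest of the 6, and the mean differences were -0.014 ± 0.23, -0.019 ± 0.21 and -0.12 ± 0.14 (SD of 3 pairs). The same scar held the highest summed levels of 4 marker lists. Hair shaft genes (7 of 12 with a row) summed to 13.24 log2 units there, against 9.07 to 10.59 in the other scars. Skeletal muscle genes (6 of 8 with a row) were at 11.01 against 10.19 to 10.50, adipocyte genes (5 of 6 with a row) at 9.80 against 8.56 to 8.86, and basal keratinocyte genes (6 of 6 with a row) at 13.91 against 13.61 to 13.77. The part of those tissues in the day 4 values was not tested. Without the day 4 pair, Col6a1 and Col6a2 differed by 0.12 and 0.10.

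Col6a6 encodes an alternative type VI chain that can take the place of Col6a3. Its levels were 7.29, 7.62 and 7.31 in the high-regeneration scars, against 6.84, 7.05 and 7.12 in the low-regeneration scars. All 3 high-regeneration scars were above all 3 low-regeneration scars, most clearly at day 6. It differed by 0.40 ± 0.20 (SD of 3 pairs, 1.32-fold, higher in 3 of 3 pairs, adjusted p = 0.361 in limma), with an interval of 0.16 to 0.65. Its neighbours on chromosome 9, Col6a5 and Col6a4, encode related chains. Col6a5 had 6.99, 7.19 and 6.89 in the high-regeneration scars, against 7.05, 6.98 and 6.79 in the low-regeneration scars, and Col6a4 had 8.25, 8.03 and 8.12 in the high-regeneration scars, against 8.21, 8.08 and 8.20 in the low-regeneration scars. Their groups overlapped, at 0.081 ± 0.14 and -0.028 ± 0.065.

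Col8a2 encodes a short-chain collagen of hexagonal networks in the cornea and in vessel walls. It measured 7.69, 7.81 and 7.80 in the high-regeneration scars, against 8.12, 8.01 and 8.05 in the low-regeneration scars. All 3 high-regeneration scars were below all 3 low-regeneration scars, with a mean difference of -0.29 ± 0.12 (SD of 3 pairs, 0.82-fold, lower in 3 of 3 pairs, adjusted p = 0.377 in limma). A second, much dimmer row of the gene had differences of -0.79, -0.033 and 0.74, and the mean of both rows gave -0.16. Its partner chain Col8a1 had pair differences of -0.49, 0.081 and -0.17. Col17a1, the hemidesmosome collagen of basal keratinocytes, had 10.58, 10.44 and 10.27 in the high-regeneration scars, against 10.63, 10.50 and 10.38 in the low-regeneration scars. It was lower in all 3 pairs, with a mean difference of -0.077 ± 0.033 (interval -0.23 to 0.079). The groups overlapped across days.

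The membrane-spanning collagen gene Col25a1, known from muscle innervation, had 6.24, 6.21 and 6.53 in the high-regeneration scars, against 6.06, 6.17 and 6.14 in the low-regeneration scars. The groups did not overlap, and the difference was 0.20 ± 0.18 (SD of 3 pairs, adjusted p = 0.533 in limma). Col26a1 stood at 7.37, 7.27 and 7.24 in the high-regeneration scars, against 7.43, 7.34 and 7.71 in the low-regeneration scars. Its difference of -0.20 ± 0.23 came mostly from the day 9 pair, the others being -0.066 and -0.071. Col10a1, a marker of hypertrophic cartilage, varied most within the family, with pair differences of -0.014, -0.97 and 1.29. Its levels were low, from 5.56 to 6.84, where genes with a mean under 5.60 were left out as dim. Col28a1, a collagen of peripheral nerve, differed by 0.11 ± 0.14 in the row kept, and its other 2 rows by 0.37 and 0.58, with higher values in all 3 pairs. Schwann cell markers, 4 of 6 with a row, summed to 11.58 to 11.91 in the high-regeneration scars and 11.57 to 11.72 in the low-regeneration scars. The membrane-spanning collagens Col13a1 and Col23a1 differed by -0.0029 ± 0.11 and -0.0039 ± 0.14.

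The second comparison followed the family over days 4, 6 and 9 after closure as a slope per day, fitted with a term for the regeneration group. The design text puts each pair at its own date, so the day and anything else tied to that date cannot be told apart, and the fit counted the 6 scars as independent. The low-regeneration scar of day 9 also differed from that of day 4 in Xist and the Y-linked genes. In the low-regeneration scars, day 9 and sex therefore cannot be told apart. Positive slopes with an unadjusted p under 0.05 were those of the fibrillar Col24a1 and Col5a3, the sheath collagens Col15a1 and Col18a1, and Col6a3. Col17a1 of keratinocytes and the fibrillar Col11a2 had such slopes with a negative sign. None passed after adjustment: limma gave 0 of 42 collagen genes and 0 of 15191 genes (0.0%) at an adjusted p under 0.05, with a lowest adjusted p of 0.215 in the family. The unadjusted threshold was met by 7 collagen genes (16.7%, against 16.2% of all genes): 5 had positive slopes (11.9%, against 6.94%) and 2 negative slopes (4.76%, against 9.24%). The 7 became 1 without the high-regeneration scar of day 9, 2 without the low-regeneration scar of day 9 and 4 without the low-regeneration scar of day 4.

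In 21 of the 42 genes day 9 exceeded day 4 in both groups, as it did in 28.8% of all genes. In 11 it lay below day 4 in both (26.2%, against 34.9% of all genes). Of the 11 fibrillar genes, 8 were among the 21 and 2 among the 11. Over the family the median slope was 0.023 log2 units per day, and over all genes tested -0.0044; the family's was 0.0052 without the high-regeneration scar of day 4 and 0.012 without that of day 9. It was 0.028 for fibrillar, 0.0025 for FACIT, 0.039 for basement membrane and 0.019 for other collagens. With each scar left out in turn these medians ran from 0.013 to 0.033, -0.0089 to 0.019, 0.014 to 0.052 and -0.010 to 0.019, with the lowest basement membrane value without the low-regeneration scar of day 9.

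Slopes are given per day with their standard error, beside the difference of day 9 minus day 4 within each group. Col24a1 had 0.091 ± 0.029 (SE, adjusted p = 0.251 in limma), with 0.42 in high-regeneration and 0.46 in low-regeneration scars. Without the low-regeneration scar of day 9 its slope was 0.059. Col6a3 had 0.081 ± 0.026 (adjusted p = 0.257 in limma), with 0.52 in high-regeneration and 0.24 in low-regeneration scars, and 0.049 without the high-regeneration scar of day 9. Both thus depended in size on a scar of the last day. Col5a3 had 0.064 ± 0.019, with 0.30 in high-regeneration and 0.34 in low-regeneration scars. Col15a1 had 0.054 ± 0.015, with 0.26 in high-regeneration and 0.27 in low-regeneration scars, and Col18a1 had 0.060 ± 0.019, with 0.23 in high-regeneration and 0.33 in low-regeneration scars. In these 3 genes both groups thus had a positive difference over time. That of the low-regeneration scars cannot be told apart from sex.

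Beside Col15a1 and Col18a1, 7 of 8 endothelial markers had day 9 above day 4 in both groups, against 28.8% of all genes, and the median of their slopes was 0.034 log2 units per day. The part of vessels in the collagen slopes was not tested. Col17a1 had a slope of -0.056 ± 0.015 (SE, adjusted p = 0.215 in limma), with -0.31 in high-regeneration and -0.25 in low-regeneration scars. Basal keratinocyte markers had a median slope of -0.025, and 4 of 6 were lower at day 9 in both groups, against 34.9% of all genes. Hair shaft markers, 7 of 12 with a row, were all lower at day 9 in both groups, against the same 34.9%, with a median slope of -0.44. Whether epidermal or follicular tissue contributed to the slope of Col17a1 was not tested. Col11a2 had -0.040 ± 0.015 (adjusted p = 0.295). Col4a3, at -0.036 ± 0.015, and the cartilage-type genes Col9a2 and Col9a3, at -0.027 ± 0.017 and -0.028 ± 0.018, had slopes of that sign as well, none of them past an unadjusted p of 0.05.

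**Figure D4:**
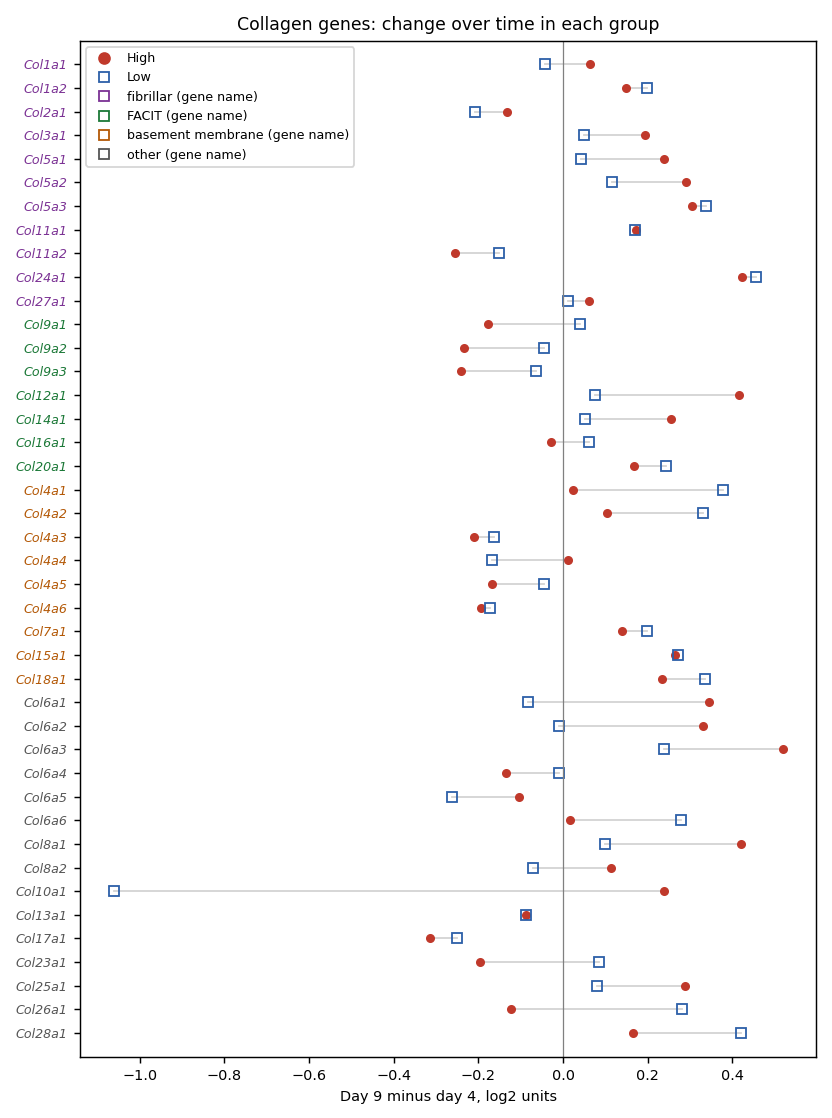
Day 9 minus day 4 (x axis, log2 units) for the 42 collagen genes in the high group (filled red circles, 1 scar per day) and the low group (open blue squares, 1 scar per day), with gene names coloured by class. Col24a1 lies at 0.42 in high-regeneration and 0.46 in low-regeneration scars, and Col17a1 at -0.31 in high-regeneration and -0.25 in low-regeneration scars; Col10a1 has the widest gap, with 0.24 in high-regeneration and -1.06 in low-regeneration scars.

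Col12a1 had a slope of 0.052 ± 0.023, with 0.42 in high-regeneration and 0.075 in low-regeneration scars, and Col1a2 one of 0.034 ± 0.015. Col1a1 had 0.0003 ± 0.017, and Col3a1 had 0.023 ± 0.016. Col4a2, Col20a1 and Col25a1 had 0.047 ± 0.024, 0.034 ± 0.031 and 0.038 ± 0.021, and Col6a5 had -0.040 ± 0.022 (all log2 units per day, SE). The difference in slope between high and low regeneration was tested as their interaction. It passed in 0 of 42 collagen genes and 0 of 15191 genes (0.0%) in limma, with a lowest adjusted p of 0.989, and 0 collagen genes had an unadjusted p under 0.05, against 3.96% of all genes (1.86% with a positive and 2.1% with a negative interaction). Without the high-regeneration scar of day 9, the interaction had an unadjusted p under 0.05 in 7 collagen genes and an adjusted p under 0.05 in 0 of them and in 83 genes of all.

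The genes that process, bind and sense collagen were read with the same fits. Of 80 listed genes, 74 had a row and 73 were tested. None passed in either comparison in limma, with a lowest adjusted p of 0.147 for high against low and 0.102 for the slope. An unadjusted p under 0.05 was found in 7 of the 73 with lower and 0 with higher values in the high-regeneration scars, against 5.17% lower and 4.89% higher of all genes. In either direction that was 9.59% of the listed genes and 10.1% of all genes. For the slope, 15 of the 73 were positive and 1 negative, against 6.94% and 9.24% of all genes.

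The fibril-binding proteoglycans and glycoproteins held 5 of those 7, all lower, as were 5.17% of all genes. Kera, the proteoglycan keratocan that spaces fibrils in the cornea, had 10.48, 10.75 and 11.22 in the high-regeneration scars, against 11.38, 11.32 and 12.01 in the low-regeneration scars. Fmod, fibromodulin, which binds type I fibrils and guides their thickening, had 10.14, 10.42 and 10.52 in the high-regeneration scars, against 11.06, 11.09 and 10.95 in the low-regeneration scars. In both, all 3 high-regeneration scars were below all 3 low-regeneration scars, the arrangement seen for Col11a1 and Col24a1. Kera differed by -0.75 ± 0.16 (SD of 3 pairs, adjusted p = 0.147 in limma) and Fmod by -0.67 ± 0.25 (adjusted p = 0.227). The other 3 of the 5 were Lum, Bgn and Sparc, singled out after their values were seen, at -0.30, -0.20 and -0.17. Of the 15 genes of the list, 8 had lower values in all 3 pairs, as did 18.3% of all genes, and 1 had higher values, as did 15.8%. The list median was -0.095. The gene with higher values, also named after seeing them, was Fn1, fibronectin, at 0.16 ± 0.044.

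Of 12 receptor genes with a row, 2 had an unadjusted p under 0.05 and lower values, against 5.17% of all genes. Lair1, an inhibitory receptor by which leukocytes sense collagen, had 6.99, 7.57 and 7.31 in the high-regeneration scars, against 7.68, 7.93 and 7.74 in the low-regeneration scars, and differed by -0.49 ± 0.18 (SD of 3 pairs, adjusted p = 0.255 in limma). Itga11, the fibroblast integrin chain for type I collagen, had 9.88, 10.17 and 10.33 in the high-regeneration scars, against 10.61, 10.38 and 10.47 in the low-regeneration scars, and differed by -0.36 ± 0.33 (adjusted p = 0.49). The groups did not overlap for either gene, and the gap of Itga11 was mostly that of day 4. Ddr2, a discoidin domain receptor of fibroblasts, differed by -0.046 ± 0.19. It had a slope of 0.077 ± 0.028, and Itgb1, the common integrin chain, one of 0.053 ± 0.018 (SE, log2 units per day). The summed level of the 8 fibroblast markers was 12.94 to 13.17 log2 units in the high-regeneration scars and 12.88 to 12.99 in the low-regeneration scars. Vim, the brightest of the 8, weighs most in that sum. The median difference of the 8 was -0.064, with 2 higher and 2 lower in all 3 pairs, against 15.8% and 18.3% of all genes.

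**Figure D5:**
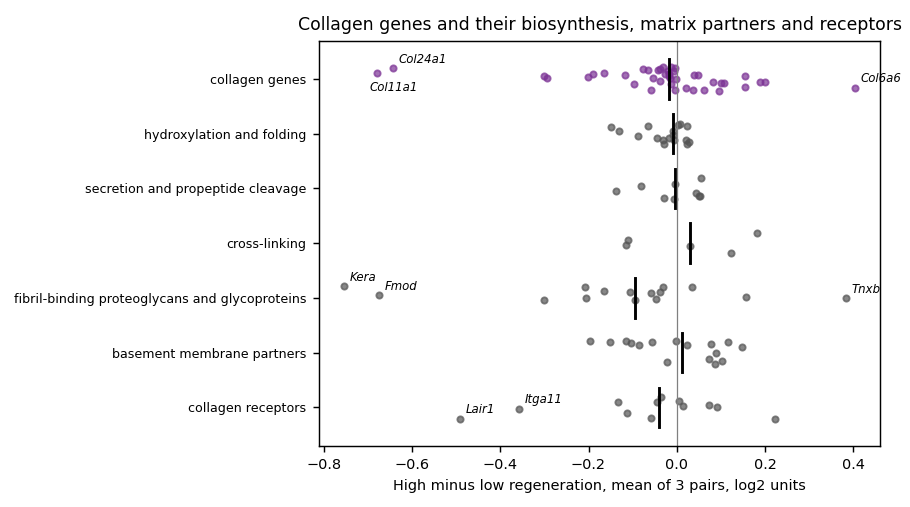
Mean high minus low difference over 3 pairs (x axis, log2 units) for the collagen genes (top row, purple) and for each list of genes that process, bind or sense collagen (grey), with 1 point per gene and a bar at the median. Col11a1, Col24a1, Kera and Fmod lie at -0.68, -0.64, -0.75 and -0.67, and the enzymes of hydroxylation, folding, secretion and cleavage lie within 0.2 of 0.

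Mean differences between the groups were small for the enzymes of collagen maturation, which does not show that the groups were equal. Of 17 hydroxylation and folding genes, 0 had an unadjusted p under 0.05 for high against low, where 10.1% of all genes did. P4ha1, a prolyl hydroxylase subunit, differed by -0.13 ± 0.040, P3h2 by -0.15 ± 0.13, and Serpinh1, the collagen chaperone, by 0.027 ± 0.28 (SD of 3 pairs). Over time Plod2, the lysyl hydroxylase that prepares stable cross-links, had 7.97, 7.93 and 8.41 in the high-regeneration scars, against 7.90, 7.98 and 8.46 in the low-regeneration scars. Day 9 was the highest day in both groups, with a slope of 0.10 ± 0.022 (SE, adjusted p = 0.19 in limma). Loxl2, a cross-linking lysyl oxidase, had 0.083 ± 0.019, with 0.54 in high-regeneration and 0.27 in low-regeneration scars, and Tgm2, a transglutaminase, had 0.021 ± 0.019. Lox, Fkbp10, Pcolce and Adamts2 had no row named by 1 symbol in the table used and were not analysed here.

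The slopes furthest from 0 in these lists were those of 2 genes of propeptide cleavage. Pcolce2, an enhancer of C-propeptide cleavage, had 7.83, 7.54 and 6.77 in the high-regeneration scars, against 7.82, 7.66 and 6.68 in the low-regeneration scars. Its level was lowest at day 9 in both groups, with a slope of -0.23 ± 0.026 (SE, adjusted p = 0.102 in limma). Adamts14, an N-propeptide protease, had 10.17, 10.49 and 11.03 in the high-regeneration scars, against 10.36, 10.13 and 11.02 in the low-regeneration scars, with its highest values at day 9 and a slope of 0.16 ± 0.036 (adjusted p = 0.201 in limma). Sec23a, a coat protein of the vesicles that export procollagen, had a slope of 0.048 ± 0.017, and Tll1, a C-propeptide protease, differed by -0.082 ± 0.24 between the groups. Of the basement membrane partners, 6 of 16 had an unadjusted p under 0.05 for the slope, all positive, against 6.94% of all genes. Lama4, a laminin chain of vessels, had 0.089 ± 0.019, and Lamc1, shared by most laminins, 0.066 ± 0.018. Lamb3, a laminin chain of the epidermal basement membrane, had -0.035 ± 0.017 and differed by 0.11 ± 0.048 between high and low. Kera and Dcn, decorin, had slopes of 0.14 ± 0.025 and 0.071 ± 0.023.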

How the data were processed

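Per the labels' protocols, biopsies were held in RNAlater and total RNA was amplified from random primers and biotin-labelled for Affymetrix exon arrays. The authors deposited 1 table of 53145 rows on what the range of values shows to be a log2 scale. Affymetrix Expression Console and PLIER are named in the submitters' processing notes; their versions and roles are not stated there, and the genome build is not given in the sources used. Array medians differed by 0.055, so no further normalization was applied.

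The platform annotation gave 25466 rows 1 gene symbol, 2299 several and 25380 none in the table used. The row of highest mean was kept per gene, and the dimmest 25% of 20255 genes (mean under 5.60) were left out, which left 15191 and all 42 collagen genes. All 42 were matched by gene ID in the RefSeq table. Of the 42, 5 had more than 1 row.

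Differences between high and low came from lmFit and eBayes of limma 3.58.1 under R 4.3.3 (two-sided, Benjamini-Hochberg over 15191 genes, 95% intervals from the moderated fit), with day as a factor. The design text puts each pair at its own date after closure, and same-day deviations from group means correlated at 0.5, 0.112 and 0.56. The slope and interaction used day as a number. Residual degrees of freedom were 2, 3 and 2. Fits were tested on simulated data. Alternatives were the filter, normalization, row choice, variance prior, block and samples left out. Members, lists, tests and alternatives were chosen with earlier results of these data known. Described in full were genes past the threshold, up to 4 per class of lowest p with 1 sign in all pairs or at both groups' day 9, the chains of types I, III, IV, V, VI, VII and XVII, and up to 2 genes per pathway list and fit.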

Additional observations from a re-analysis of the deposited data

How the results depend on the processing

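Under all alternatives run (no filter on dim genes, quantile normalization, the mean over a gene's rows, an intensity trend in the variance prior, no replicate block, day 9 against day 4 with day as a factor, and each pair or scar left out), 0 collagen genes were called in any of the 3 tests. Without the replicate block, the lowest adjusted p in the family was 0.287 in limma, and 5 collagen genes had an unadjusted p under 0.05. Dropping the block cannot change a mean difference here, only its error, since each day holds 1 scar of each group. Over all genes, high against low gave 8 calls, 11 with the mean over rows, 9 with the trend, 6 without the block, 35 without the day 6 pair and 0 without the day 4 or day 9 pair, the filter or with quantile normalization. The slope gave 130 without the high-regeneration scar of day 6 and 0 otherwise, and the interaction gave 83 without the high-regeneration scar of day 9, 1 without that of day 4 and 0 otherwise. Without the high-regeneration scar of day 9, 7 collagen genes had an unadjusted p under 0.05 in the interaction.

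With scars left out, the median slope per day of the family was 0.0052 to 0.025, of FACIT collagens -0.0089 to 0.019 and of the other collagens -0.010 to 0.019. Of 756 recomputed gene values, 715 kept their sign and 41, from 31 of 84 results, turned it, 3 of them with no pair or scar left out. Many of the 715 could not turn, since the filter, the variance prior and the block change the error of a value and not the value. The mean over rows can change only the 5 genes with more than 1 row. The differences of the 6 genes with an unadjusted p under 0.05 for high against low kept their sign. For any pair left out this was fixed in advance, since each of the 6 had 1 sign in all 3 pairs. The mean over rows gave 0.15 for Col5a2 and 0.092 for Col6a4, and quantile normalization 0.0007 for Col23a1. With pairs left out, high minus low ran from -0.041 to 0.019 for Col1a1, from -0.0093 to 0.078 for Col2a1, from -0.050 to 0.023 for Col3a1, from -0.089 to 0.084 for Col5a1, from -0.074 to 0.023 for Col5a2, from -0.036 to 0.021 for Col11a2, from -0.078 to 0.023 for Col27a1, from -0.093 to 0.0011 for Col9a2, from -0.13 to 0.0028 for Col20a1, from -0.13 to 0.047 for Col4a1, from -0.13 to 0.041 for Col4a2, from -0.025 to 0.088 for Col4a4, from -0.036 to 0.10 for Col4a6, from -0.10 to 0.12 for Col6a1, from -0.088 to 0.10 for Col6a2, from -0.49 to 0.64 for Col10a1, from -0.066 to 0.029 for Col13a1 and from -0.078 to 0.063 for Col23a1. With scars left out, the slope ran from -0.013 to 0.010 for Col1a1, from -0.032 to 0.0036 for Col9a1, from -0.0072 to 0.041 for Col14a1, from -0.0089 to 0.019 for Col16a1, from -0.012 to 0.053 for Col6a1, from -0.010 to 0.053 for Col6a2, from -0.029 to 0.0083 for Col6a4, from -0.021 to 0.073 for Col8a1, from -0.010 to 0.018 for Col8a2, from -0.25 to 0.073 for Col10a1, from -0.030 to 0.0065 for Col23a1 and from -0.026 to 0.047 for Col26a1. Signal over background was not tested, since the table used holds no detection values.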
